A study of Mus musculus with 21 samples.

Results

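Interferon response and antigen presentation genes were followed across an RBM10 study of mouse cells. The set holds 41 genes named by symbol, of 37131 genes in the joined annotation, and all 41 were found. These genes were chosen with earlier results of these data known, so counts over them are descriptions. It was read as gene TPM (a level scaled by transcript length and to a common library total) in 13 RNA-seq libraries. It was also read as crosslinks on the strand of the gene in 8 iCLIP libraries. RBM10, encoded on the X chromosome, binds RNA and takes part in the choice of splice sites. The iCLIP method fixes proteins to the RNA they touch with UV light, pulls the protein down and finds the crosslinked base by sequencing.

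The md MEPA line came from the mandibular part of the pharyngeal arch of 11.5 d.p.c. mouse embryos, whose mothers were CD1 and whose father was an Immortomouse. All md cells, knockout (KO) and wild type (WT) alike, and the cells used for iCLIP, were grown at 33 °C with 100 U/ml murine interferon. The type of interferon is not legible in the labels. Cells for iCLIP received 400 mJ/cm2 of UV at 254 nm, and precipitation used an antibody to RBM10 (4 libraries) or rabbit IgG (4 libraries). The RNA-seq of md cells covered 4 CRISPR clones, KO1 and KO2 with a deletion in exon 3 of Rbm10 and KO3 and KO4 with one in exon 9, beside 3 WT samples. Each KO library is 1 clone. The ES cells were the male gene trap line Rbm10Gt(CSI176)Byg (KO, 3 samples) and its parent E14Tg2a.4 (WT, 3 samples), grown with LIF. The labels of the ES cells name no interferon. The samples of WT md cells and of each ES line are not said to be separate cultures, so the spread behind the p-values may be technical only. The md and ES values lie in separate tables, and cell type, medium, temperature and table cannot be told apart between them.

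Interferons act through cell surface receptors and JAK kinases. Type I interferon assembles STAT2 and IRF9 into the ISGF3 complex, which binds ISRE elements and switches on antiviral genes such as the Ifit family, Isg15, Oas and Mx genes. Interferon gamma acts through STAT dimers on GAS elements and induces Irf1, the guanylate-binding proteins and antigen presentation. For the latter, the immunoproteasome cuts peptides, the TAP transporter and tapasin load them, and class I heavy chains with beta-2 microglobulin show them on the cell surface. NLRC5 is the transcriptional coactivator of the class I genes, and SOCS1 and USP18 damp the signal. The Immortomouse carries a temperature-sensitive SV40 large T antigen under an interferon-inducible class I promoter, which is why such lines are kept with interferon at low temperature.

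Rbm10 was read first, as the check of the labels. Its ES values were 4.27, 3.63 and 4.25 TPM for KO and 32.5, 33.5 and 32.2 TPM for WT. The md clones held 23.2 (KO1), 19.7 (KO2), 7.20 (KO3) and 3.49 TPM (KO4), and the WT samples 21.4, 23.2 and 23.7 TPM. The values of KO1 and KO2 lie near or within the WT range, so they do not check those 2 labels. The arch mesenchyme markers summed to 682.5 to 2390 TPM in the md clones and to 1327 to 1609 TPM in WT, with Hand2 at 0 in all 7 libraries. Of the 8 arch markers 5 passed the filter of 1 TPM in 3 libraries, and a single one reached 1056 TPM in WT. The ES markers Pou5f1 and Zfp42 were at 0 in all md libraries, while 3 of the 6 ES markers passed the filter there. The 6 summed to 5.68 to 17.6 TPM in the clones and 9.3 to 10.6 TPM in WT md, beside 4105 to 4992 TPM in WT ES cells. The leukocyte genes Ptprc, Emr1, Cd3e and Tyrobp were at 0 in md cells, where the leukocyte markers summed to 3.16 to 13.6 TPM in the clones and 2.99 to 4.36 TPM in WT. In ES cells 2 of 6 pluripotency markers, Nanog and Esrrb, were called lower in KO, and their part in the ES results was not tested. The iCLIP libraries held 1114788, 2847066, 2845634 and 774816 crosslinks with the RBM10 antibody and 965090, 2214515, 103017 and 157986 with IgG. IgG libraries 3 and 4 are shallow, and 1 crosslink in IgG library 3 weighs 9.71 CPM (crosslinks scaled to a common library total). All RBM10 libraries ran in 1 lane and all IgG libraries in a different one, so antibody and lane cannot be told apart. RNA-seq depth is unknown.

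The promoters show which members carry the elements that interferon signalling is known to use. RefSeq promoters (GRCm38.p6, 250 bases before to 50 after the start) were matched by symbol for 34 of the 41 members. An ISRE-like motif, GAAANNGAA on either strand, lay in a promoter of 18 of those 34 members, against 9.76% of all 27025 genes with a promoter. A GAS-like motif, TTCNNNGAA, was searched likewise and lay in 7 members, against 9.55% of all genes. Either motif lay in 22 members, against 17.9% of all genes. The motifs share the letters GAA and can overlap. A match describes letters and is not a binding site. The 4 windows below are the last 160 bases before the start, with matches in capitals. Those of Ifit3 and Ifit1 hold 3 ISRE-like matches each, 2 of which overlap in Ifit1. Those of Irf1 and Psmb8 hold 1 GAS-like match each. Ifit3 and Ifit1 are examples from the 4 members with the lowest p in the md clones, and Irf1 and Psmb8 from those called in ES cells.
Ifit3, chr19:34583369-34583528, plus strand: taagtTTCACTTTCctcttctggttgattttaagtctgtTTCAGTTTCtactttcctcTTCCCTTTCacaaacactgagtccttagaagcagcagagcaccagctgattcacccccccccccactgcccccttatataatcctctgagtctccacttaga
Ifit1, chr19:34640729-34640888, plus strand: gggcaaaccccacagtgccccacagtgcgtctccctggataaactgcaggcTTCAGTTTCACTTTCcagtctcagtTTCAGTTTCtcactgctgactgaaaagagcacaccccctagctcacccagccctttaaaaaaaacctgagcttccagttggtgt
Irf1, chr11:53769854-53770013, plus strand: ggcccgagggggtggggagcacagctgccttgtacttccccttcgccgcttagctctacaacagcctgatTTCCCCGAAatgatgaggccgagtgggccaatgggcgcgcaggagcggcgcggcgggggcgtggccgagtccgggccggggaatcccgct
Psmb8, chr17:34198035-34198194, plus strand: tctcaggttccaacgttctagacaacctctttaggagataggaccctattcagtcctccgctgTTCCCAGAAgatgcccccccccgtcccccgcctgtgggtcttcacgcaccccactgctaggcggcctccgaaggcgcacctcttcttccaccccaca
The promoter of H2-D1, another of those 4 members, held neither motif in this window. Ifit2, also among the 4, had 1 GAS-like match and no ISRE-like match. Of the members called in ES cells but not shown, Ddx58, Socs1, Oas1a and Ifitm3 held ISRE-like matches. Oas1a and Ifitm3 held a GAS-like match as well, and Ifi35 held a GAS-like match only. The windows shown thus give no division of the motifs between the md and ES results.

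The second set of sequences shows top RBM10 positions of members that lay before 3' splice sites. For each member the position with most RBM10 crosslinks among those hit in all 4 RBM10 libraries was taken. Of the 13 members called higher with the RBM10 antibody, 5 had this position in the last 100 nt of an intron, before a 3' splice site. In the others, Irf1, Psmb8, Psmb9, Tap1, Gbp3, Oasl2, Ifi35 and Psme2, it lay in an annotated exon. Only the 5 before 3' splice sites are shown, with 40 nt to each side (mm9, RNA sense), the crosslinked base in capitals.
Stat2, chr10:127719057-127719137, plus strand: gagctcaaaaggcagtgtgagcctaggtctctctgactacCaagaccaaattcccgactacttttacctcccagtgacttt
Nlrc5, chr8:96998430-96998510, plus strand: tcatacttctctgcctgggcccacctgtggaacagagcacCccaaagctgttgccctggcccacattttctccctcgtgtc
Irf9, chr14:56224436-56224516, plus strand: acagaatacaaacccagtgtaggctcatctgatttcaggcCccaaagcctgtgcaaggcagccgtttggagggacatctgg
Parp14, chr16:35844529-35844609, minus strand: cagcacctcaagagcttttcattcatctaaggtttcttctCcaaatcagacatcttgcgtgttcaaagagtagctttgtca
Tap2, chr17:34348675-34348755, plus strand: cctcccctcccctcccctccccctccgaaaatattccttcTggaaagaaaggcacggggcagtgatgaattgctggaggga
The Stat2 position, 61 nt before its exon, held 26, 23, 34 and 23 crosslinks in the RBM10 libraries and 4, 0, 0 and 0 in IgG. The Nlrc5 position, 62 nt before its exon, held 17, 28, 88 and 19 and none in IgG. The Irf9 position (82 nt) held 7, 12, 13 and 4 against 1, 0, 0 and 0, the Parp14 position (72 nt) 6, 15, 27 and 1 against none, and the Tap2 position (100 nt) 3, 12, 14 and 2 against none. In all 5 the crosslinked base is a pyrimidine, C in 4 and T in Tap2. UV crosslinking and its read-out have a base preference of their own, so the base is given as a description. Positions were chosen for their RBM10 counts, and their excess over IgG is no test.

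Wild-type md cells held these genes at far higher levels than wild-type ES cells. The 41 members summed to 10631, 10820 and 11872 TPM in WT md and to 590, 571 and 684 TPM in WT ES samples. Mean levels of at least 100 TPM were reached by 16 members in WT md and by 1, Ifitm3, in WT ES cells. Means were under 1 TPM for 2 members in WT md and for 20 in WT ES cells. Ifit3, Ifih1, Mx1, Mx2, Ifi44 and Usp18 were listed at 0 in all 3 WT ES samples. Bulk values cannot tell fewer expressing cells from less RNA per cell.

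**Figure D1:**
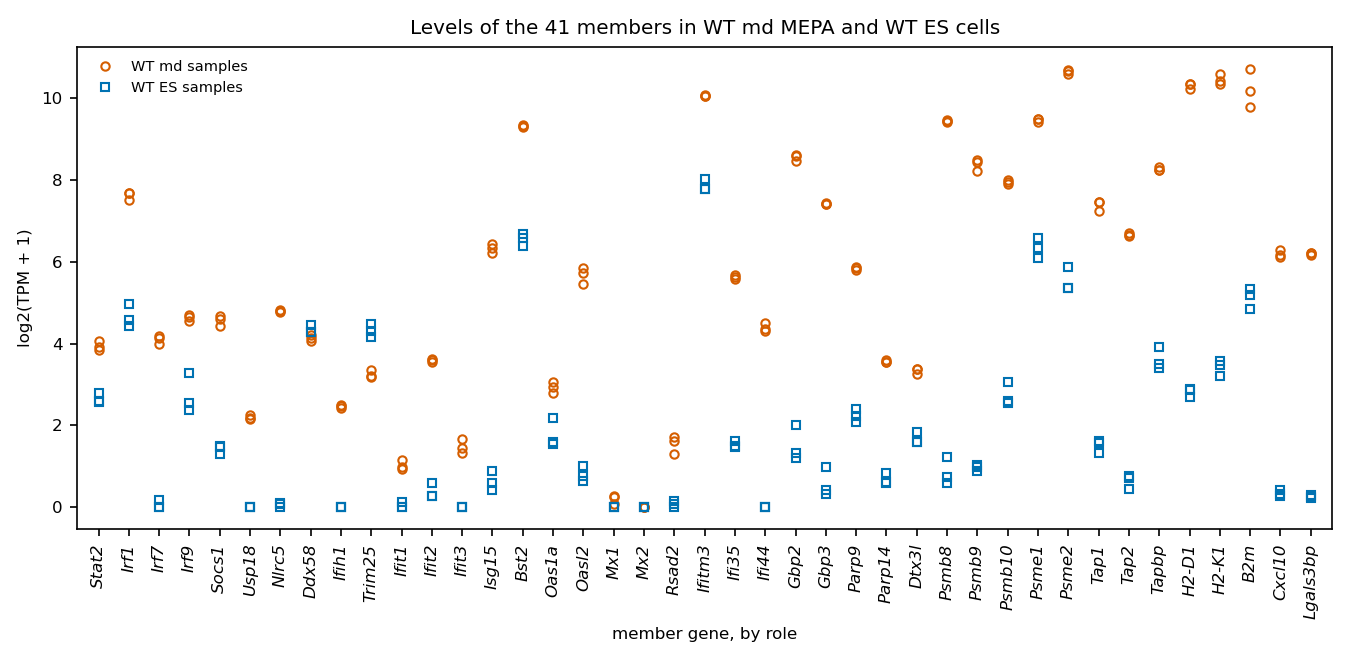
Levels of the 41 members, as log2(TPM + 1), in the 3 WT md MEPA samples and the 3 WT ES samples, each point 1 sample, ordered by role. The md points lie above the ES points for nearly all members, and the order is turned for Trim25 and, by less, for Ddx58.

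The head of the md order was antigen processing. Psme2, a subunit of the PA28 activator of the proteasome, led with 1611 ± 56.3 TPM (SD, n = 3). The class I heavy chains H2-K1 and H2-D1 followed with 1404 ± 123 and 1274 ± 59.9 TPM, and the light chain B2m with 1236 ± 409 TPM. The B2m samples, 1147, 880 and 1682 TPM, span those of its neighbours, so the order among the class I genes is within their spread. Ifitm3, a membrane protein that blocks virus entry, had 1072 ± 14.5 TPM, Psme1, the partner of Psme2, 707 ± 20.8 and the catalytic immunoproteasome subunit Psmb8 692 ± 11.2 TPM. At the foot of the order lay Mx1, an antiviral GTPase, with 0.148 ± 0.0775 TPM, and Mx2, listed at 0. The antiviral effectors were spread over the whole order, from Ifitm3 and Bst2 (634 ± 11.8 TPM) near its head to the Mx genes. Ifit1 had 1.04 ± 0.173, Ifit3 1.81 ± 0.338 and Isg15, a ubiquitin-like modifier, 79.0 ± 6.06 TPM. Shares of reads between near-identical copies, such as H2-D1 and H2-K1 or the Ifit, Gbp, Oas and Mx genes, are uncertain in TPM.

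Of 38 members tested between WT md and WT ES cells, 36 were called higher in md (46.8% of 13709 genes were) and 2 lower (38.2% of genes were), at a limma adjusted p under 0.05. The filter of 1 TPM in 3 libraries admitted members near 0 in ES cells through the md samples alone. Among them were Psmb8, Psmb9, Cxcl10, Nlrc5, Tap2 and Lgals3bp, and for such members the filter set the direction. The median difference over the members was +4.08 on the log2(TPM + 1) scale, beside +0.15 over all genes tested. H2-D1 had 1205, 1309 and 1309 TPM in md and 6.29, 6.37 and 5.52 in ES samples, a difference of +7.50 (SE 0.07, limma adjusted p = 3.55e-09). Psmb9, another catalytic immunoproteasome subunit, had 297, 348 and 357 against 0.990, 1.04 and 0.858 TPM (+7.41, SE 0.09, limma adjusted p = 6.42e-09). H2-K1 had 1295, 1380 and 1538 against 10.1, 10.9 and 8.16 TPM (+7.04, SE 0.11). No sample of these 3 genes came near the other group. The chemokine Cxcl10 had 70.8, 77.1 and 68.1 against 0.202, 0.244 and 0.330 TPM (+5.86, SE 0.07). Nlrc5 had 26.4, 26.8 and 27.2 against 0, 0.0683 and 0.0472 TPM (+4.74, SE 0.06). Tap2, one chain of the peptide transporter, had 98.3, 104 and 100.3 against 0.694, 0.642 and 0.363 TPM (+6.03, SE 0.09). These 6 differences, with those of the secreted glycoprotein Lgals3bp (+5.94, SE 0.06) and of Ifi35 (+4.10, SE 0.07), were the 8 with the lowest p. The most different member in size was Psmb8, at +8.59 (SE 0.16, limma adjusted p = 2.78e-08).

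The 2 members lower in md cells both belong to RNA sensing. Trim25, the ubiquitin ligase that activates the RNA sensor RIG-I, had 9.16, 8.23 and 8.04 TPM in WT md and 17.0, 18.9 and 21.2 TPM in WT ES samples (-1.08, SE 0.09, limma adjusted p = 3.71e-05). Ddx58, which encodes RIG-I, had 15.8, 17.5 and 16.5 against 18.6, 18.6 and 20.8 TPM (-0.21, SE 0.07, limma adjusted p = 0.028). The Ddx58 call was lost without WT md sample 1 or 3 and in a fit with the replicate number as a block (limma adjusted p = 0.0529, and up to 0.0896 over the alternatives). The other sensor, Ifih1 (MDA5), had 4.33 to 4.604 TPM in md and was listed at 0 in ES cells.

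The question of the md clones is which genes change when Rbm10 is disrupted. None of the 39 members tested was called between the 4 clones and WT by limma (2 of 12072 genes, 0.0166%, were), and 7 had an unadjusted p under 0.05 (6.83% of genes did). Estimates were above 0 for 37 of 39 members, with a median of +0.33 beside +0.01 over all genes. Mx1 and Mx2 did not pass the filter of 1 TPM in 3 libraries. Ifit1 passed this filter only with its KO clones, which favoured an estimate above 0. The clones differed among themselves far more than the WT samples did. Clone KO3 held a lower level than the other 3 clones in 31 of the 39 members, against 31.7% of all genes. The members summed to 15495 TPM in KO1, 14613 in KO2, 12169 in KO3 and 16801 in KO4.

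Against the range of the 3 WT samples, KO1 lay above it for 33 members and below it for 5 (44.6% and 37.4% of all genes). KO2 lay above it for 32 and below it for 5 (46.2% and 32.2% of genes). KO4 lay above it for 33 and below it for 4 (40% and 43.1% of genes). KO3 lay above it for 9 and below it for 25 (39.5% and 40.3% of genes). The medians over the members, relative to the WT mean, were +0.63, +0.44, -0.24 and +0.59 in KO1 to KO4. KO4, which shares the targeted exon with KO3, thus lay with the exon 3 clones. Above WT in KO1, KO2 and KO4 and below it in KO3 were 15 of 39 members, against 6.02% of all genes. Above WT in all 4 clones were 7 members (6.33% of genes), and below it in all 4 none (4.37% of genes). Clones were single samples, so these counts carry no test.

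**Figure D2:**
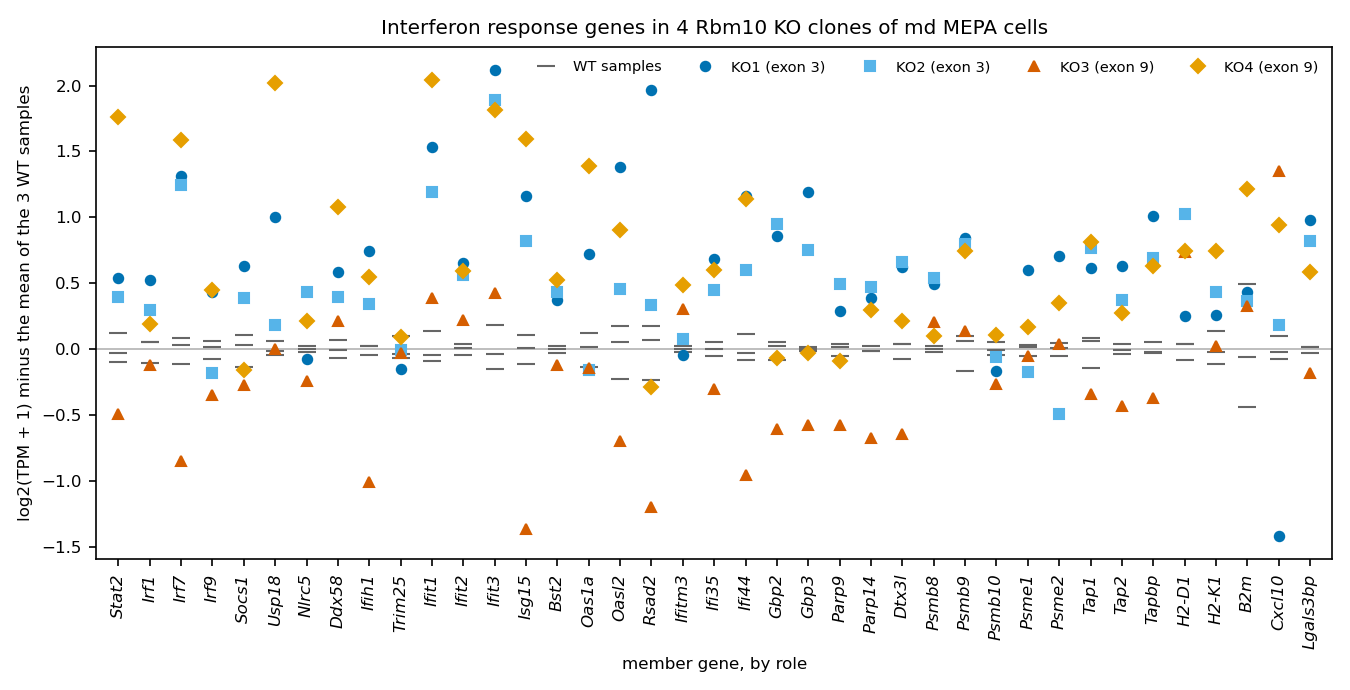
Level of each member in the 4 md KO clones and the 3 WT samples, as log2(TPM + 1) minus the mean of the WT samples, ordered by role. KO1, KO2 and KO4 lie above the WT samples for 32 to 33 of 39 members, and KO3 lies below them for 25.

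Of the 7 signalling and transcription factors, Stat2, Irf1 and Irf7 followed the divided pattern, and Irf9, Nlrc5, Socs1 and Usp18 did not. Stat2, the ISGF3 subunit, had 21.5, 19.3, 9.96 and 51.4 TPM in KO1 to KO4 and 15.8, 14.1 and 13.4 in WT (+0.55, SE 0.46, limma adjusted p = 0.832). Irf7, the regulator that amplifies type I interferon production, had 41.8, 39.95, 8.60 and 51.0 against 16.6, 14.9 and 17.3 TPM (+0.82, SE 0.55, limma adjusted p = 0.791). Isg15 had 178, 140, 30.0 and 241 against 72.8, 79.3 and 85.0 TPM (+0.55, SE 0.64, limma adjusted p = 0.876). In each of these the low value is KO3 and the high value KO4. Tap1, the other chain of the peptide transporter, had 255, 285, 132 and 294 TPM in the clones and 150, 177 and 174 in WT. Tapbp (tapasin) had 620, 498, 237 and 477 against 301, 303 and 319 TPM. All 3 peptide loading genes followed this pattern. Irf1 (283, 242, 180 and 224 against 182, 204 and 204 TPM), Bst2, Dtx3l, Ifi35, Ifi44, Ifih1, Lgals3bp, Oasl2 and Parp14 did so too.

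The 7 members above WT in every clone were Ddx58, H2-D1, Ifit1, Ifit2, Ifit3, Psmb8 and Psmb9. Among them Ifit1 passed the filter only with its KO clones, so the filter favoured its direction. Ifit3, of the same family as Ifit1, had 11.1, 9.39, 2.75 and 8.84 TPM in the clones and 1.52, 1.73 and 2.18 in WT (+1.56, SE 0.39, limma adjusted p = 0.602). H2-D1 had 1512, 2592, 2123 and 2134 against 1205, 1309 and 1309 TPM (+0.69, SE 0.17, limma adjusted p = 0.602). Ifit2 had 17.97, 16.9, 13.1 and 17.2 against 11.1, 10.7 and 11.4 TPM (+0.51, SE 0.14, limma adjusted p = 0.615). These had the lowest p of the members, with Ifit1, a sensor of foreign RNA ends, at 4.89, 3.67, 1.66 and 7.39 against 0.912, 1.24 and 0.979 TPM (+1.29, SE 0.36, limma adjusted p = 0.618). KO3 was the lowest clone for the 3 Ifit genes, and KO1 for H2-D1. Psmb9 had 598, 580, 366 and 558 against 297, 348 and 357 TPM (+0.63, SE 0.19, limma adjusted p = 0.637), Psmb8 had +0.33 (SE 0.13) and Ddx58 +0.57 (SE 0.20). None of the 7 passed the test.

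Without clone KO3, Ifit3 was called (+1.94, SE 0.15, limma adjusted p = 0.0414, and from 0.0414 to 1 over the alternatives), against 3 of 12072 genes (0.0249%). The members with an unadjusted p under 0.05 were then 24 of 39 (16.1% of genes), and the median rose to +0.58. KO3 was chosen for this comparison after its values were seen.

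Other members moved in ways of their own. Cxcl10 had 26.3, 81.8, 185 and 139 TPM in KO1 to KO4 and 70.8, 77.1 and 68.1 in WT, so KO1 was the lowest and KO3 the highest clone. Rsad2 (viperin, an antiviral enzyme) had 10.4, 2.68, 0.269 and 1.39 against 1.47, 2.05 and 2.28 TPM, with KO1 above and KO3 below every other md library. The guanylate-binding protein Gbp2 had 679, 723, 246 and 358 against 354, 381 and 389 TPM, with KO1 and KO2 above WT, KO3 below it and KO4 within it. Gbp3 had 388, 286, 113 and 166 against 168, 169 and 171 TPM, and there KO4 too lay just below WT. B2m had 1607, 1533, 1495 and 2768 against 1147, 880 and 1682 TPM, and H2-K1 1679, 1891, 1422 and 2346 against 1295, 1380 and 1538 TPM. For both, KO4 is the highest library and KO3 lies within the WT range. Psmb10, the third catalytic immunoproteasome subunit, had 220, 237, 205 and 266 against 257, 246 and 240 TPM, and its estimate of -0.10 and that of Trim25 (-0.02) were the 2 below 0.

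The feedback and regulatory members were divided too. Usp18, the ISG15 protease that damps type I signalling, had 8.21, 4.21, 3.605 and 17.6 TPM in KO1 to KO4 and 3.45, 3.54 and 3.80 in WT (+0.80, SE 0.45). Socs1 had 35.8, 30.05, 18.7 and 20.3 against 20.6, 24.6 and 23.3 TPM. Irf9 had 32.5, 20.9, 18.4 and 32.8 against 22.5, 23.99 and 24.9 TPM. KO1 lay above WT for all 3, and KO3 lay below WT for Socs1 and Irf9 and within it for Usp18. The PA28 genes moved alike, Psme1 at 1073, 628, 681 and 794 against 684, 717 and 722 TPM and Psme2 at 2626, 1144, 1650 and 2049 against 1551, 1618 and 1663 TPM, with KO1 and KO4 above WT and KO2 below it. Parp9, an ADP-ribosyltransferase family member that works with the ubiquitin ligase Dtx3l, had 69.1, 79.7, 37.5 and 52.97 against 54.4, 57.1 and 57.9 TPM. Oasl2 had 133, 69.4, 30.8 and 95.02 against 42.9, 52.4 and 56.95 TPM, and Ifi44 45.6, 30.6, 9.75 and 44.9 against 18.6, 19.4 and 21.6 TPM. Mx1 stayed under 1 TPM in every library, at 0.3995, 0.736, 0.238 and 0.223 TPM in the clones and 0.0597, 0.181 and 0.204 in WT. Mx2 was listed at 0 in every md library but KO3, which had 0.302 TPM. Mx1 and Mx2 were not tested, and none of the others was called.

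In ES cells, with no interferon named in the labels, 25 members passed the filter. The gene trap line was called higher than its parent for 4 (7.55% of 12845 genes were) and lower for 3 (4.74% of genes were). The median over the 25 was +0.39, beside +0.03 over all genes, and 17 were above 0. The 25 include members, named below, that passed the filter only with the samples of 1 group. For those the filter favoured the direction. The members summed to 985, 957 and 883 TPM in KO and 590, 571 and 684 TPM in WT. Ifitm3 made up most of this difference, with 483, 456 and 413 TPM against 218, 219 and 261 TPM (+0.95, SE 0.11, limma adjusted p = 0.0104). Psmb8 had 2.87, 2.71 and 2.43 against 0.508, 0.659 and 1.33 TPM (+1.03, SE 0.18, limma adjusted p = 0.0247). Irf1, a transcription factor induced early by interferon, had 37.9, 56.05 and 55.2 against 20.4, 22.8 and 30.5 TPM (+0.99, SE 0.20, limma adjusted p = 0.0307). Socs1, the feedback inhibitor of JAK kinases, had 2.62, 3.72 and 3.02 against 1.80, 1.46 and 1.83 TPM (+0.61, SE 0.14, limma adjusted p = 0.0377). In these 4 genes every KO sample lay above every WT sample.

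Ddx58 fell in the KO line, from 18.6, 18.6 and 20.8 to 12.8, 10.7 and 10.6 TPM (-0.72, SE 0.10, limma adjusted p = 0.0185). Ifi35 had 1.09, 0.346 and 0.524 against 1.82, 1.80 and 2.07 TPM (-0.83, SE 0.18, limma adjusted p = 0.0343). Oas1a, one of the 2'-5' oligoadenylate synthetases that sense double-stranded RNA, had 1.15, 0.813 and 0.624 against 1.94, 2.02 and 3.55 TPM (-0.89, SE 0.20, limma adjusted p = 0.0391). The groups did not overlap in these 3 either. All but Ifitm3, Irf1 and Ddx58 of the 7 were under 4 TPM in every ES sample. Psmb8 passed the filter of 1 TPM in 3 libraries only with its KO samples, and Ifi35 and Oas1a only with their WT samples. Of the members not called, Psmb9, Isg15 and Oasl2 passed it only with their KO samples. Next in order came Psme2, at 62.8, 85.1 and 71.9 against 40.05, 39.98 and 57.7 TPM (+0.67, SE 0.18, limma adjusted p = 0.0518). The class I genes had estimates near 0 or below, H2-K1 +0.08 (SE 0.14), H2-D1 -0.07 (SE 0.14) and B2m -0.31 (SE 0.25), and none was called.

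**Figure D3:**
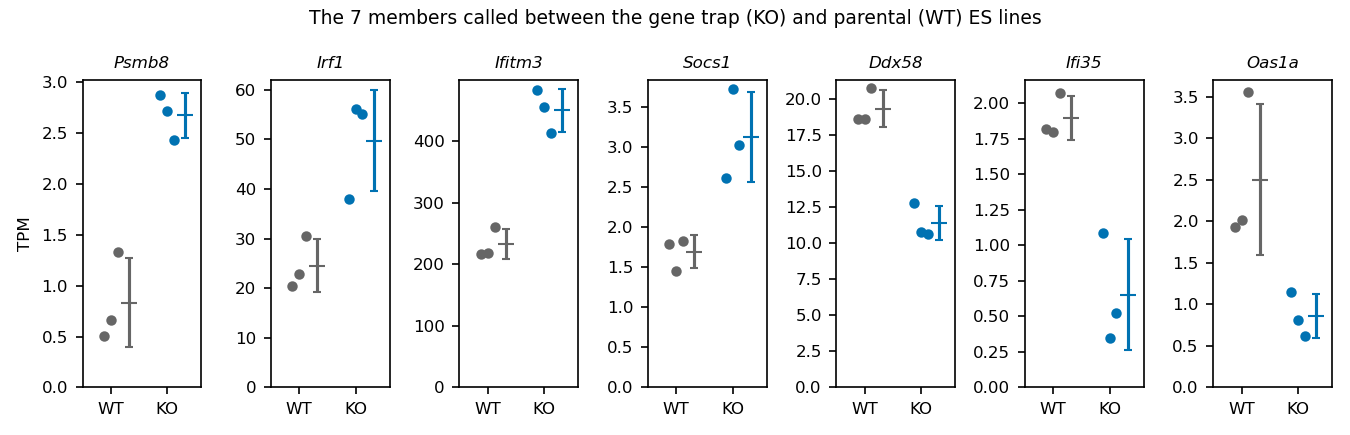
TPM of the 7 members called between the gene trap (KO) and parental (WT) ES lines, each point 1 sample and each bar the mean ± SD of 3, with a separate linear axis from 0 for each gene. Ifitm3, Psmb8, Irf1 and Socs1 lie higher in KO, Ddx58, Ifi35 and Oas1a lower, and the groups do not overlap.

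The ES calls did not hold when single libraries were left out, though the fold changes moved little. Leaving out each library in turn gave 0.90 to 1.04 for Ifitm3, 0.87 to 1.17 for Irf1, 0.90 to 1.21 for Psmb8 and -0.80 to -0.67 for Ddx58. All 7 calls were lost without KO sample 2, WT sample 1 or WT sample 2, and 6 without KO sample 3, where Ifitm3 remained. The calls over all genes, 1579 with all 6 samples, numbered 62, 49, 59 and 57 in those fits, 4054 without KO sample 1 and 1896 without WT sample 3. A replicate block left 422 genes and 3 members (Ddx58, Ifitm3 and Irf1) called. The share of calls that were higher in KO was 61.4%, and 46.2% after quantile normalization, under which the 7 members remained called.

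The difference of the KO effect between the cell types was tested for 25 members. It was called for Ddx58 alone (104 of 10545 genes, 0.986%, were). Its KO effect was higher in md than in ES cells by 1.29 (SE 0.25, limma adjusted p = 0.0342, between 0.00752 and 0.117 over the alternatives), with +0.57 in md and -0.72 in ES cells. All 4 md clones lay above all WT md samples, and all 3 ES KO samples below all WT ES samples. The call was lost without ES KO sample 2 or 3, ES WT sample 1 or 2, or any WT md sample. The next members were Ifitm3 (-0.75, limma adjusted p = 0.0615), Ifi35 (+1.19, limma adjusted p = 0.0734) and H2-D1 (+0.76, limma adjusted p = 0.106), none called. Over all genes the calls numbered 8 to 11 in each of those 7 fits. They rose to 260, 1313, 757 and 197 without md clone KO2 or KO3, ES KO sample 1 or ES WT sample 3, and to 156 without KO1.

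Since RBM10 regulates splicing, the share of each gene's TPM held by each transcript was compared as well. None of 66 member transcripts was called in md cells (0% of 18733 transcripts were). An unadjusted limma p under 0.05 was found for 2, both of H2-D1 (7.82% of all transcripts had one). None of 37 was called in ES cells (0.0424% of 18880 were), with 3 at an unadjusted limma p under 0.05 (12.3% of all transcripts). The members thus did not exceed the shares over all transcripts, and those below are given as the lowest p only. ENSMUST00000172785 of H2-D1 held 37.3, 30.5, 30.9 and 31.5% in the clones and 40.7, 38.6 and 38.5% in WT, a difference of -6.71 points (SE 2.10, limma adjusted p = 0.494). ENSMUST00000138037 of Irf9 held 69.6, 68.9, 70.4 and 77.5% against 69.7, 61.0 and 64.4% (+6.57 points, SE 2.96, limma adjusted p = 0.650). In ES cells ENSMUST00000165774 of Gbp2 held 100% in all 3 KO samples and 84.9, 83.0 and 94.8% in WT (+12.4 points, SE 3.40, limma adjusted p = 0.251), at a gene level of 1.32 to 3.25 TPM. ENSMUST00000130697 of Irf9 held 17.6, 17.8 and 13.7% in KO and 10.9, 10.2 and 7.61% in WT (+6.77 points, SE 2.15, limma adjusted p = 0.310). Such shares rest on the assignment of reads to transcripts made before deposition.

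The iCLIP libraries ask which of these transcripts RBM10 contacts. Of 32 members tested, 13 were called higher with the RBM10 antibody than with IgG by edgeR (19.6% of 9254 genes were) and 2 lower (17.4% of genes were). The median log2 ratio was +0.41, beside +0.03 over all genes. Of the signalling and transcription factors 4 of 5 tested were called higher, Stat2, Irf9, Nlrc5 and Irf1. Stat2 held 445, 366, 481 and 542 CPM in the RBM10 libraries and 100, 90.8, 68.0 and 57.0 in IgG (+2.15, SE 0.21, edgeR adjusted p = 0.000107). Irf9, its partner in ISGF3, held 61.0, 60.1, 85.8 and 62.0 against 18.6, 15.3, 9.71 and 6.33 CPM (+1.84, SE 0.28, edgeR adjusted p = 0.000894). Nlrc5 held 2131, 1679, 2965 and 2448 against 691, 507, 505 and 468 CPM (+1.80, SE 0.22, edgeR adjusted p = 0.000335). For these 3 genes the lowest RBM10 library lay well above the highest IgG library.

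Of the immunoproteasome 3 of 5 genes were called higher and of peptide loading 2 of 3, and of the class I genes none was called higher and B2m lower. Psmb8 held 151, 160, 216 and 194 CPM with RBM10 and 77.7, 69.5, 77.7 and 50.6 with IgG (+1.08, SE 0.20, edgeR adjusted p = 0.00188). Psme2 held 34.1, 24.6, 47.1 and 60.7 against 8.29, 8.58, 0 and 6.33 CPM (+2.06, SE 0.43, edgeR adjusted p = 0.00337). Tap1 held 321, 222, 326 and 239 against 164, 111, 97.1 and 69.6 CPM (+0.94, SE 0.23, edgeR adjusted p = 0.00714). Gbp3 held 161, 152, 169 and 158 against 77.7, 76.8, 58.2 and 31.6 CPM (+0.95, SE 0.21, edgeR adjusted p = 0.00492). The groups did not overlap in these 4. The other members called higher were Ifi35 (+0.98), Oasl2 (+1.02), Tap2 (+0.80), Psmb9 (+1.10), Parp14 (+0.65) and Irf1 (+0.50), with edgeR adjusted p from 0.00884 to 0.0392.

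The 2 members lower with RBM10 were B2m and Ifitm3, both above 1000 TPM on average in WT md cells. Psme2, which was called higher, and H2-K1 and H2-D1, which were not called, lay above 1000 TPM too. B2m held 285, 308, 204 and 183 CPM with RBM10 and 390, 476, 388 and 272 with IgG (-0.92, SE 0.23, edgeR adjusted p = 0.00811), and the groups overlap. Ifitm3 held 20.6, 24.9, 7.03 and 14.2 against 32.1, 42.9, 48.5 and 38.0 CPM (-1.48, SE 0.40, edgeR adjusted p = 0.0125). A ratio to IgG in library shares shows unequal recovery and gives no absolute binding.

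**Figure D4:**
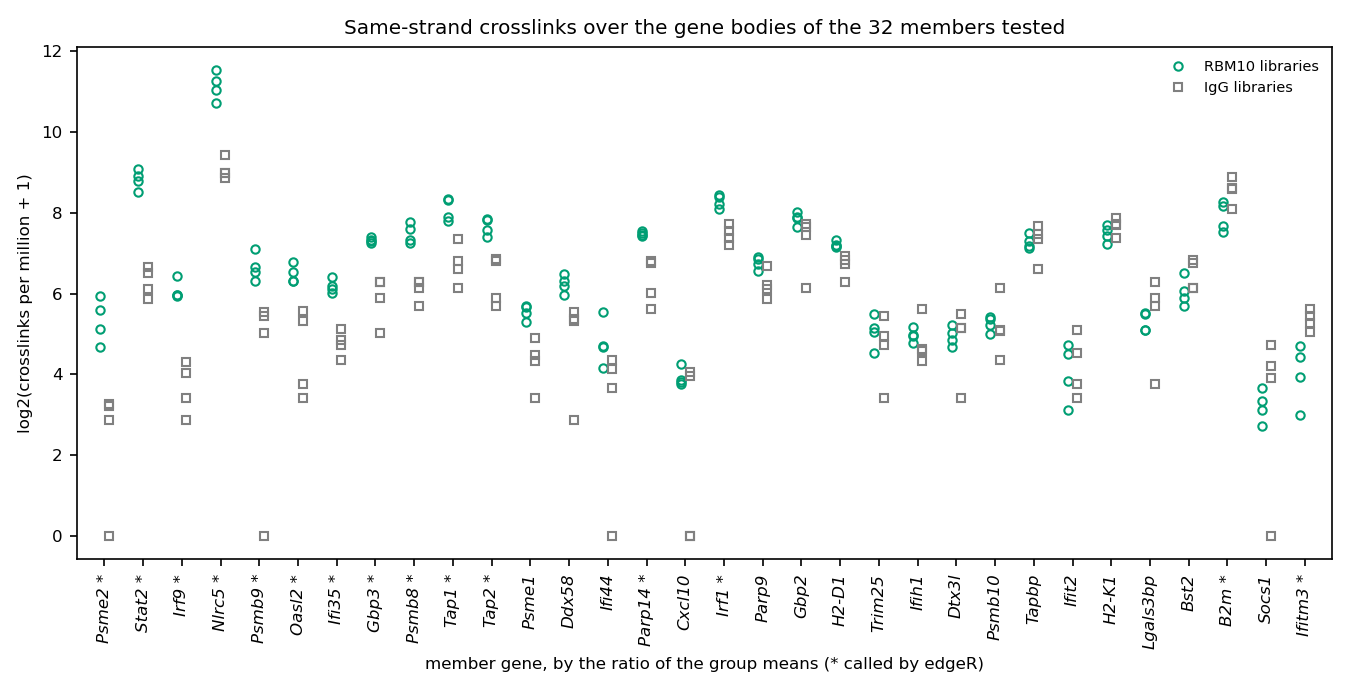
Same-strand crosslinks over the gene bodies of the 32 members tested, as log2(CPM + 1), each point 1 of the 4 RBM10 or 4 IgG libraries, ordered by the ratio of the group means, with asterisks on the 15 members called by edgeR. Stat2, Nlrc5, Irf9 and Psme2 show separate groups of points, and B2m and Ifitm3 are called lower in RBM10.

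Of the 15 calls, 11 were made in all 14 settings run, and those of Irf1, Parp14, Psmb9 and Ifitm3 were not. Irf1 lost its call without RBM10 library 1, 3 or 4 or IgG library 2 or 3, Parp14 without RBM10 library 2 or IgG library 2 or 4, and Psmb9 and Ifitm3 without IgG library 2. Counting each position once per library ended the calls of Irf1, Parp14 and Psmb9. Over all genes 3421 were called, and 2221 or 1753 without IgG library 1 or 2. Of the 3421, 52.9% were higher with RBM10, and 75.1% of 3678 without the TMM scaling factors, where the median of all genes was +0.32 and 16 members were higher and 2 lower.

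The remaining 9 members had too few crosslinks for the filter of the main test. With a filter of at least 10 crosslinks over all libraries, 39 members were tested. Of these 16 were called higher and 2 lower (2158 and 1455 of 13182 genes were). Oas1a, Ddx58 and Psme1 were added to the calls. Over the 4 RBM10 and the 4 IgG libraries Ifit1 had 2 and 1 crosslinks, Isg15 14 and 6, Mx1 14 and 1, Rsad2 24 and 13, Mx2 37 and 16, Irf7 49 and 21, Oas1a 75 and 8 and Usp18 80 and 27. Ifit3 had none in any library, which allows up to 0.396 CPM in the pooled RBM10 and 0.872 CPM in the pooled IgG libraries (3 counts of the total, counting error only). Contacts below those depths were not detectable.

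Crosslinks were unevenly spread among the members. Nlrc5 alone held 17490 of the 45374 RBM10 crosslinks of the set (38.5%), on a gene body of 54.5 kb. Per kb of gene body the RBM10 level was highest in Psmb8 (48.2 CPM per kb), B2m (45.4) and Nlrc5 (42.3), with IgG at 18.4, 70.7 and 9.96 CPM per kb. Psmb8 and B2m are small genes of 3.73 and 5.40 kb with abundant mRNA, and Nlrc5 had a modest 26.8 ± 0.402 TPM in WT md cells.

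Within the genes the RBM10 crosslinks lay in other places than those of IgG. The 100 nt of intron before 3' splice sites, the stretch of the branch point and polypyrimidine tract, held 26.4 ± 4.00% of the members' RBM10 crosslinks (SD over 4 libraries, 21.5 to 29.7%) and 5.87 ± 1.31% of the IgG ones (4.51 to 7.35%). Annotated exons held 27.5 ± 6.19% and 58.9 ± 2.93%. Exons here include those of every annotated transcript, also of models that keep an intron. Without Nlrc5 the shares before 3' splice sites were 19.3 ± 3.38% and 4.56 ± 0.4996%. In 30 of 31 members with at least 100 RBM10 and 20 IgG crosslinks this share was higher with RBM10, Psme2 being the exception, and the medians were 15.5 and 3.32%. The exon share was lower with RBM10 in 28 of the 31. Over all 8144 genes with as many crosslinks, the share before 3' splice sites was higher with RBM10 in 97.8% (medians 17.7 and 2.13%) and the exon share lower in 83.2%. The counts for the members lie near these shares, so they are no result about the members.

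Stat2 had 48.4, 45.3, 46.7 and 55.2% of its RBM10 crosslinks in these windows and 21.7, 12.4, 57.1 and 11.1% of its IgG ones, where IgG libraries 3 and 4 held only 7 and 9 crosslinks in the gene. Nlrc5 had 37.2, 34.3, 39.9 and 40.01% against 17.8, 7.93, 5.77 and 13.5%. H2-D1, whose total did not differ (+0.19, edgeR adjusted p = 0.427), had 29.2, 24.8, 33.1 and 33.6% against 5.50, 1.72, 0 and 0%. Psmb10, likewise not called by its total, had 46.7, 40.4, 65.5 and 54.2% against 25.0, 5.56, 0 and 9.09%. IgG libraries 3 and 4 held only 8 and 19 crosslinks in H2-D1 and 2 and 11 in Psmb10. Against IgG libraries 1 and 2, placement differed in these genes though their totals were not called. The higher share before 3' splice sites was seen in 97.8% of all genes compared, so it is not particular to them. Psmb8 held most crosslinks in exons with either antibody, 75.0, 80.4, 71.8 and 80.0% with RBM10 and 84.0, 89.6, 100 and 100% with IgG. Its shares before 3' splice sites were 12.5, 5.71, 11.5 and 6% with RBM10 and 4.00, 3.25, 0 and 0% with IgG. Both shares differed in the direction of the other members, and IgG libraries 3 and 4 held only 8 crosslinks each in the gene.

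**Figure D5:**
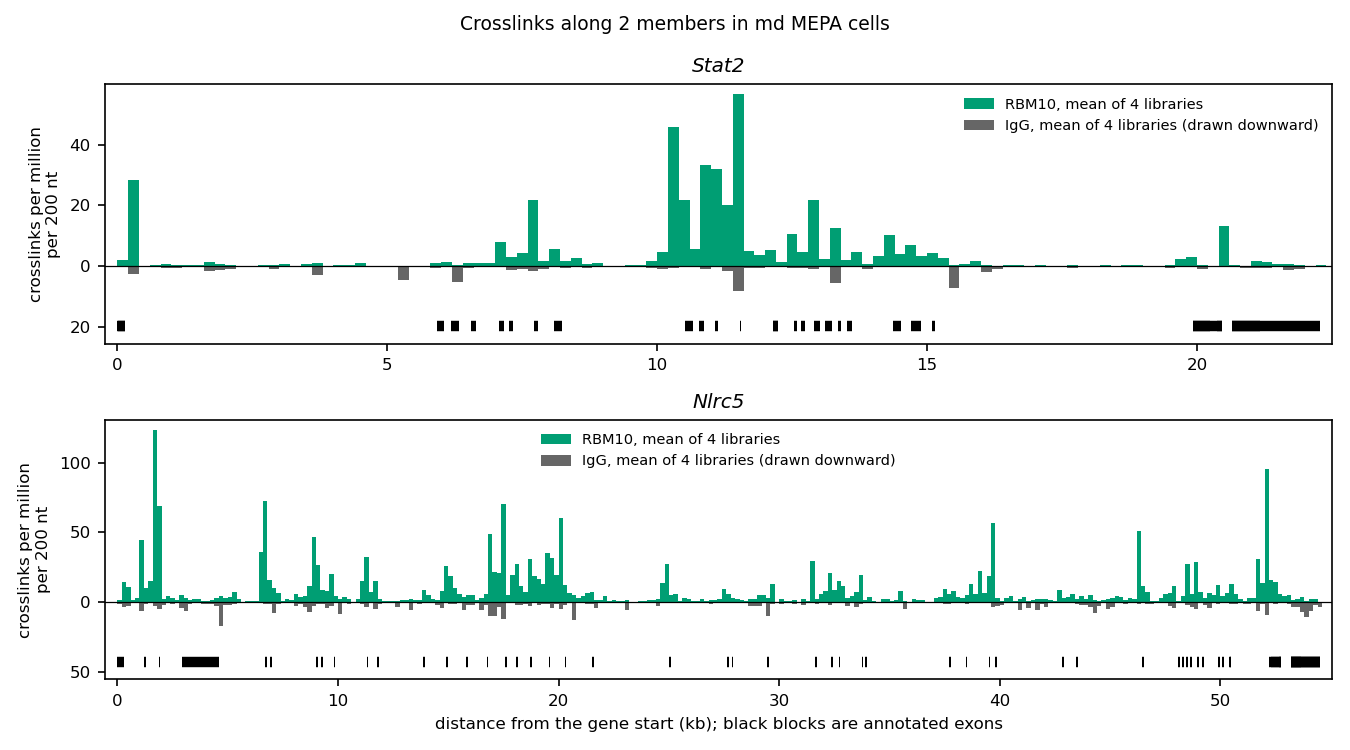
Mean CPM in bins of 200 nt along 2 members in md MEPA cells, by distance from the gene start in kb, with RBM10 drawn upward, IgG downward and annotated exons as black blocks. RBM10 crosslinks form many narrow peaks, where IgG is lower, and in some other bins, such as that at the end of the first wide Nlrc5 exon, IgG is the higher.

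Positions hit in all 4 RBM10 libraries numbered 206 in Nlrc5, 39 in Stat2, 19 in Tap1, 17 in Irf1 and 15 each in Psmb8 and B2m, and 18 members had none. In the 23 members with such a position, the one with most crosslinks was a C in 18 and a T in 5. It lay in the last 100 nt before an exon in 8 members, 60 to 100 nt from it (median 77). The 5 sequences shown above belong to these 8. In most of the other members with such a position it lay in an annotated exon. Some gene bodies overlap another gene on the same strand, Irf9 with Rnf31 and Tapbp with Zbtb22, and their crosslinks cannot be told apart there. Psmb9 and Tap1, Parp9 and Dtx3l, B2m and Patl2 and other pairs overlap on opposite strands, which matters for TPM if the RNA-seq was not stranded.

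The rest of the pathway was read from lists of 44 further genes. The interferon genes themselves (7 of type I and II) were at or under 0.135 TPM in every library, with Ifne at 0.135 TPM in clone KO2, Ifna4 at 0.0894 TPM in ES KO sample 1 and all other values 0. Of the receptors and kinases 6 of 7 were higher and 1 lower in WT md than in WT ES cells, and all 8 genes of sensing and induction were higher, where 46.8% of all genes were called higher and 38.2% lower. The class II genes, which present peptides from outside the cell, were higher in 6 of 6 (median +4.94) and the immunity-related and other GTPases in 9 of 9 (median +6.18). No class II or GTPase gene of these lists exceeded 1.56 TPM in a WT ES sample, so the filter largely set their direction. The invariant chain gene Cd74 had 690, 858 and 835 TPM in WT md and 0.791, 0.931 and 1.55 TPM in WT ES samples.

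None of these genes was called in the md clones, where the 6 class II genes were all above 0 (median +0.71). Cd74 had 1641, 1341, 693 and 989 TPM in KO1 to KO4, and Ciita, the coactivator of class II genes, 22.0, 25.1, 10.4 and 11.6 TPM against 11.1, 12.3 and 13.3 in WT. KO3 was the lowest clone for both. In ES cells Irgm1, an immunity-related GTPase, was called higher in KO, at 1.76, 3.60 and 2.63 against 0.681, 0.757 and 1.13 TPM (+0.96, limma adjusted p = 0.0347). So was Calr, a chaperone of class I loading, at 369, 488 and 567 against 227, 259 and 310 TPM (+0.83, limma adjusted p = 0.0376). Irgm1 was the 1 GTPase gene tested and passed the filter only with its KO samples. Calr was 1 of 7 tested in its list. None of 7 receptors and kinases or 4 genes of sensing and induction was called (7.55% of all genes were called higher). In iCLIP the kinase gene Tyk2 (+1.22), the adaptor gene Mavs (+1.31), Tbk1 (+0.80), Dhx58 (+1.605), Ciita (+0.86) and Gbp7 were called higher with RBM10. The chaperone genes Calr, Canx and Pdia3 and the GTPase genes Irgm2 and Iigp1 were called lower. The higher calls were 1 of 7 receptors and kinases tested, 3 of 7 genes of sensing, 1 of 6 of class II and 1 of 9 GTPases. Over all genes 19.6% were called higher. The lower calls were 3 of 6 genes of loading and constitutive proteasome and 2 of 9 GTPases, where 17.4% of all genes were.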

How the data were processed

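RNA-seq of poly(A) RNA covered 7 md MEPA and 6 ES samples, and iCLIP 8 md MEPA libraries. The deposited values are the authors' TPM of each transcript, md and ES cells in separate tables, and crosslink counts per position and strand for each iCLIP library. The builds mm9 and mm10 are named per the submitters' processing notes. Not given in the sources used here: the quantifier, the aligner, strandedness and any collapsing of crosslinks by barcode.

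TPM were summed per gene through GENCODE vM1 on mm9, which joined 84877 of 100249 transcripts (84.7%) and 85.4 to 91.5% of TPM per library. Genes with at least 1 TPM in 3 libraries were tested as log2(TPM + 1) with limma 3.58.1. Fold changes on this scale understate low genes. Deposited crosslink counts were summed over gene bodies on the gene's strand and compared by the quasi-likelihood test of edgeR 4.0.16 with TMM factors, leaving out 4866 positions on sequences not in the reference. Calls had a Benjamini-Hochberg adjusted p under 0.05 over all features. A transcript share also had to differ by at least 10 points. The SE beside an edgeR log2 ratio was calculated back from the ratio and the F statistic of its test. Other tools were Python 3.11.15, numpy 2.4.6, pandas 2.3.3, pysam 0.24.0, R 4.3.3 and, as an alternative, DESeq2 1.42.0.

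The members and lists were chosen with earlier results of these data known. Full statistics go to the called members (the 8 with the lowest p where more passed) and otherwise to the 4 with the lowest p. Other members given with values are examples chosen after their values were seen. RBM10 and IgG libraries pair by design, each RBM10 replicate having its own IgG control, though same-numbered libraries hardly deviate together (r from -0.02 to 0.03). On simulated data, changes of 1 and 2 on the log2 scale were recovered for 54 and 91% of 100 genes in the md comparison, 77 and 97% in ES cells and 46 and 96% in iCLIP. False calls numbered 13, 13 and 10. The md and ES simulations drew genes independently, with 1 spread per gene for both groups. The md clones spread more than WT and differ over many genes together, so these rates do not give the power of that comparison. Alternatives were the pseudocount, filters, scaling, a replicate block, DESeq2, positions counted once and leaving out each library. Intervals and floors cover counting error only.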

Additional observations from a re-analysis of the deposited data

Results flagged for a closer look

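In 4 of 103 groups of 4 libraries 1 library lay far from the others (a gap above Dixon's 95% critical value, which chance gives in about 1 in 20 groups). B2m stood at 2768 TPM in md clone KO4 and at 1495 to 1607 TPM in the other clones. Irf9 held 85.8 CPM in RBM10 library 3 and 60.1 to 62.0 CPM in the other RBM10 libraries. Cxcl10 held 18.1 CPM in RBM10 library 4 and 12.7 to 13.5 CPM in the others. Ifih1 held 48.5 CPM in IgG library 3, from 5 crosslinks, and 18.99 to 23.8 CPM in the other IgG libraries. The KO effect on Ddx58 differed between md and ES cells by 1.29 on the log2 scale in the limma test of the difference, with the dependence on single libraries given above.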

How the results depend on the processing

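Among the members given with full statistics, no estimate changed sign under the alternatives run, where 320 values kept direction and side of the threshold, 43 lost a call and 9 gained one. Other members did change sign: those above 0 in the md comparison numbered 37 of 39, and 31 without KO1, and in the difference between cell types 13 of 25, 10 with a pseudocount of 0.1 and 16 without KO3. The md comparison, with 2 genes called, gave 0 with a pseudocount of 0.1, 0 with a mean of at least 5 TPM, 6 with no filter and 0 with a replicate block. Leaving out 1 library gave 0 to 4 genes and 0 to 1 members. The ES comparison, with 1579 genes and 7 members called, gave 774 and 3 with no filter and 4 members with a mean of at least 5 TPM. Leaving out 1 library gave 49 to 4054 genes and 0 to 10 members. The difference between cell types gave 241 genes and 2 members after quantile normalization, and 8 to 1313 genes and 0 to 5 members without 1 library. Transcript shares with at least 5 TPM per gene gave 2 calls in md and 14 in ES cells, and 0 to 3 and 1 to 12 without 1 library. RBM10 against IgG gave 1753 to 3915 genes and 11 to 16 members without 1 library. WT md against WT ES gave 11236 to 11931 genes and 37 to 38 members. With pairs 1 and 2 alone, an alternative chosen after seeing the data, all 15 member calls remained and Dtx3l, Ifi44, Parp9 and Psme1 were added. DESeq2 called 3279 genes, 58.5% of them higher, with 14 members higher and 2 lower.

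The replicate block changed no member call in iCLIP (2630 genes, 15 members). In md cells same-numbered samples had r of -0.11, -0.00 and -0.06 and in ES cells 0.16, -0.13 and 0.04, so there the numbers do not pair samples. The block gave 422 genes and 3 members in ES cells and 0 ES transcript shares. Depth limits the iCLIP values of short or low genes, above all in IgG libraries 3 and 4.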
